A study of Mus musculus with 45 samples.

Results

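Mouse embryonic stem cells (ESCs) that have lost their self-renewal signals were compared here 2.5 and 3 days after they had been moved to serum-free adherent culture, either in plain N2B27 medium (the libraries called Neural) or in N2B27 to which Fgf2 and Activin A had been added (FA, the libraries called EpiSC, for epiblast stem cell). The 8 libraries are all those of the 45 RNA-seq libraries of the series that carry 1 of these 2 labels and 1 of these 2 days. Each FA library was matched with the N2B27 library of the same starting medium and day, which gave 4 pairs. The starting media were 2iL (N2B27 with the GSK3 inhibitor CHIR99021, the MEK inhibitor PD0325901 and LIF) and SL (serum and LIF). All cells were wild-type ESCs of the 129/Ola background, differentiated as a monolayer on gelatin. Days 2.5 and 3 from 1 medium belong to 1 time course, so that each condition holds 2 time courses, and the p-values below measure the spread between these libraries. The added proteins were given together, so their separate effects cannot be told apart, and in RNA from whole dishes fewer cells of a type and less RNA per cell cannot be told apart either.

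Activin A binds the receptors that also read Nodal, and the phosphorylated Smad2 and Smad3 that result switch on Nodal itself, its antagonists Lefty1, Lefty2 and Cer1 and the inhibitory Smad7. Fgf2 acts through Fgf receptors and the ERK kinases, whose activity is read out by feedback genes such as Dusp6, Spry1, Etv4 and Etv5. Both signals hold epiblast cells of the embryo, and EpiSCs in culture, in a pluripotent state that is primed for differentiation. When neither protein is added, ESCs in N2B27 turn towards neural ectoderm marked by Sox1, a fate change on which retinoic acid, made from vitamin A, adds a posterior identity of hindbrain type with its own binding proteins, receptors and Hox targets. The comparison therefore asks which genes depended on the 2 added proteins at the time the cells left pluripotency.

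The deposited values were whole-number read counts per Ensembl gene, and total counts were 13093226 to 26518487 per library. Levels below are in CPM (counts-per-million) after TMM scaling over the 8 libraries. When all values of a gene are given, they stand in the order 2iL day 2.5, 2iL day 3, SL day 2.5 and SL day 3, first for FA and then for N2B27. A difference is the log2 of FA over N2B27 with its standard error (SE) from edgeR's quasi-likelihood fit with the pair as a block, so that 1 means 2-fold and 2 means 4-fold, and a gene was called higher or lower at a Benjamini-Hochberg adjusted p under 0.05 over all genes tested.

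Before the results, 1 set of libraries has to be described. The 7 EpiSC libraries of the 2iL course, its undifferentiated day 0 library included, stood apart in a few genes, most of them lower there. Gm18025 lay at 1.29 to 3.01 CPM in these 7 and at 15.0 to 39.6 CPM in the other 38 libraries. Snora15, a small nucleolar RNA, lay at 0.211 to 1.51 CPM against 3.58 to 9.81 CPM, and Hist1h2be at 160.2 to 231.6 CPM against 289.4 to 612.0 CPM. Since day 0 precedes any FA, the 2iL pairs carry a difference of this kind that FA did not make, and how the libraries came to differ was not tested. Of the 14116 genes tested, 214 differed by more than 1 on the log2 scale between the 2iL EpiSC and 2iL Neural libraries of day 0, and 38 of those were called at days 2.5 and 3. Values from the SL pairs alone are therefore given beside some results, and the day 0 value is given for some named genes that were already apart. From SL there was 1 day 0 library, shared by all conditions, so a difference between the SL courses before FA could not be checked. Among the genes named below, Cdh2, Crabp1, Acvr2b, Apoe, Car9, Cdh11, Chic1, Ddit4, Efna5, Foxa2, Gap43, Hoxb5, Notch1, Nr0b1, Rbpj, Stmn3 and Trim71 passed over the 4 pairs and in the 2iL pairs alone but not in the SL pairs alone, where their differences had the same sign. In SL alone the difference was 1.21 for Nr0b1 (adjusted p = 0.0721), 1.21 for Hoxb5, -0.89 for Efna5, 0.78 for Car9, 0.49 for Foxa2, -0.20 for Ddit4 and 0.14 for Chic1 (adjusted p = 0.193, 0.0947, 0.23, 0.0653, 0.244 and 0.429). Other named genes passed over the 4 pairs and in SL alone but not in the 2iL pairs alone. Among them were Nodal, Nanog, Lefty2, Irf1, Mest, Fgf5 and Gbp2b, each with the same sign in 2iL. In 2iL alone their adjusted p was 0.45, 0.245, 0.351, 0.316, 0.368, 0.105 and 0.168 in that order. Gata4 was another, at -0.16 in 2iL alone (adjusted p = 0.633).

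The labels were compared with marker genes. Over all genes tested, 11.6% were called higher in FA and 12.0% lower. Summed over 10 epiblast markers (Pou5f1, Fgf5, Otx2, Dnmt3b, Pou3f1, Nodal, Lefty2, Tdgf1, T and Cer1), the level was 1305 to 2460 CPM in FA and 579.2 to 1365 CPM in N2B27, and 9 of the 10 were called higher in FA. Summed over 10 neural progenitor markers it was 108.7 to 181.4 CPM in FA and 145.1 to 404.3 CPM in N2B27, and 5 of the 10 were called lower in FA while none was called higher. The neural markers Hes5, Six3 and Pou3f2 were too low to be tested, and of the 4 neuron markers that could be tested (Tubb3, Elavl3, Stmn2 and Map2) none was called, so that the neural label rests here on Sox1, Pax6, Zic1, Lhx2 and Fabp7. Surface ectoderm markers summed to under 1 CPM in every library (0.119 to 0.731). Markers of naive embryonic stem cells summed to 165.3 to 292.3 CPM in FA and 104.4 to 145.8 CPM in N2B27 without overlap, and of the 6 genes 1 was called higher and 1 lower. The higher gene was Nanog, at 99.7 to 178 CPM in FA and 49.5 to 72.6 CPM in N2B27. Tbx3 was the lower gene, and for every marker of this set but Nanog the groups overlapped. Endoderm markers summed lower in FA in all 4 pairs, at 21.2 to 47.3 CPM against 27.5 to 102.0 CPM, with 3 of the 5 genes called lower and 1 higher. The 6 extraembryonic endoderm markers, Cubn and Dab2 among them, had a lower sum in FA in the SL pairs only, and 1 of the 6 was called lower over the 4 pairs. They summed to 621.9 to 715.3 CPM in FA and 1430 to 1770 CPM in N2B27 there, against 337.7 to 403.8 CPM and 207.2 to 396.2 CPM in 2iL, and the share of any of these cells in the differences below was not tested.

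At adjusted p under 0.05, 3336 of 14116 genes differed between FA and N2B27, which is 23.6% of all genes tested. The call rate was 11.6% for higher in FA (1641 genes) and 12.0% for lower (1695 genes). Large differences were more often downward: 236 genes were more than 2-fold higher and 431 more than 2-fold lower, and 33 and 95 genes passed 4-fold. Of the called genes, 3299 moved the same way in all 4 pairs, 3326 had the same direction in the SL pairs alone and 1574 were also called there. In 11.9% of all genes tested the 4 FA libraries and the 4 N2B27 libraries did not overlap. A fit without the pair block, in which the difference between media and days counts as noise, left 234 calls, and the SL pairs alone gave 1931. Without the 2iL pair of day 3 there were 1776 calls, and without the SL pair of day 2.5 there were 1954.

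**Figure D1:**
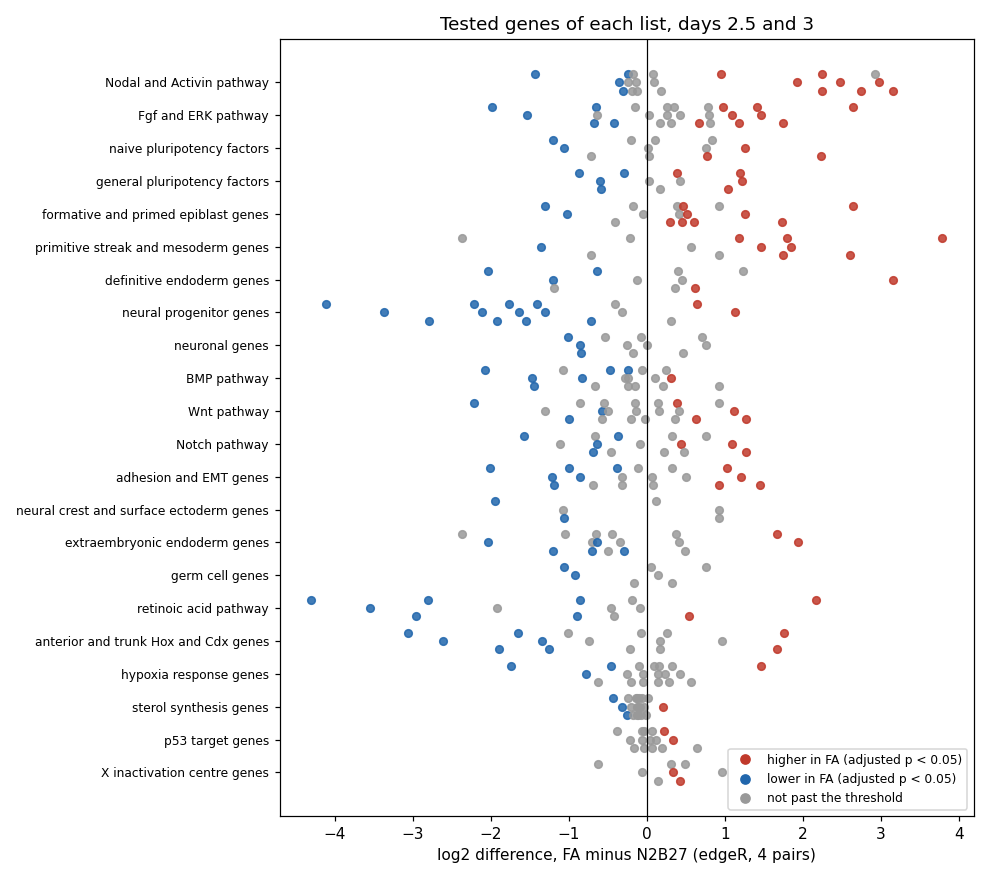
Each point is 1 tested gene of the list named on the vertical axis, placed by its log2 difference between FA and N2B27 over the 4 pairs (positive, higher in FA); red and blue points passed an adjusted p of 0.05. Nodal, Fgf, epiblast and primitive streak genes hold points above 2 on the right, and neural progenitor and retinoic acid genes hold points below -2 on the left. Other lists also pass these limits. Nr0b1 of the naive factors, Cyp26a1 of the retinoic acid genes and Cer1 of the endoderm genes lie above 2. Meis1, Wnt8a, Id3, Sox17 and Zeb2 lie below -2.

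Genes of the Nodal and Activin pathway, target genes among them, formed the first list. Of 24 genes on this list, 21 could be tested, 8 were called higher and 4 lower in FA, and the median difference over the tested genes was 0.09 (all genes, -0.01). The called share was 57.1%, against 23.6% for all genes. Smad7, the inhibitory Smad that dampens its own pathway, stood at 68.2, 65.4, 93.9 and 93.2 CPM in FA and 13.4, 9.69, 14.5 and 10.3 CPM in N2B27. All 4 FA libraries lay above all 4 N2B27 libraries, and the difference was 2.74 ± 0.13 (adjusted p = 4.72e-05). Lefty2, a secreted antagonist of Nodal, was measured at 236, 346, 131 and 109.8 CPM in FA and 61.2, 20.8, 21.7 and 10.49 CPM in N2B27. The groups did not overlap, with the smallest pair difference in 2iL at day 2.5, and the log2 difference was 2.97 ± 0.46 (adjusted p = 0.0254). Its neighbour and close paralogue Lefty1 had 347, 842, 374 and 312 CPM in FA and 136, 51.1, 60.2 and 24.8 CPM in N2B27, again with no overlap, but the pairs varied so much that a difference of 2.93 ± 0.62 did not pass (adjusted p = 0.056). Reads of the Lefty genes may be shared between the 2 copies on chromosome 1 of GRCm38 (Lefty2 at chr1:180893108-180899103 and Lefty1 at chr1:180935022-180938400).

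Nodal itself and its co-receptor moved with the targets. Nodal, the ligand, was at 42.9, 60.2, 46.0 and 42.9 CPM in FA and 19.3, 4.60, 12.9 and 6.94 CPM in N2B27, and the difference of 2.24 ± 0.49 only just passed (adjusted p = 0.049). In the SL pairs alone the adjusted p was 0.00146, and in the 2iL pairs alone it was 0.45. Tdgf1, the membrane-bound co-receptor also called Cripto, was at 279.5, 127, 262 and 213 CPM in FA and 62.5, 19.9, 56.3 and 29.2 CPM in N2B27. It fell from day 2.5 to day 3 in both conditions and stayed above N2B27 in each pair, with a difference of 2.47 ± 0.13 (adjusted p = 0.000187). Cer1, a secreted antagonist made by anterior endoderm, ranged from 4.54 CPM in FA from 2iL at day 2.5 to 37.3 CPM in FA from SL at day 3, against 1.10 to 2.80 CPM in N2B27, a difference of 3.15 ± 0.23 (adjusted p = 0.00034). Pmepa1, a membrane protein that holds back Smads, and Skil, a Smad corepressor, were higher by 2.25 ± 0.31 and 0.95 ± 0.09 (adjusted p = 0.00395 and 0.000664).

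Receptors and signal carriers showed small differences or none that passed. The type II receptors Acvr2a and Acvr2b were lower in FA at -0.31 and -0.35 on the log2 scale, and Smad2 at -0.24, with adjusted p = 0.0413, 0.0317 and 0.0364. For Acvr1b, Smad3, Smad4 and Foxh1, the DNA-binding partner of the Smads, differences of -0.12, -0.19, -0.14 and 0.09 did not pass. Fst, which encodes the Activin-binding protein follistatin, went the other way from the antagonists above, at 14.8, 14.4, 9.01 and 11.2 CPM in FA and 25.4, 57.5, 19.1 and 39.8 CPM in N2B27. Every N2B27 library exceeded every FA library, and the difference was -1.44 ± 0.23 (adjusted p = 0.00976). The genes of the Activin subunits Inhba and Inhbb were too low to test, as was Fgf2 itself with 6 reads over the 8 libraries.

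**Figure D2:**
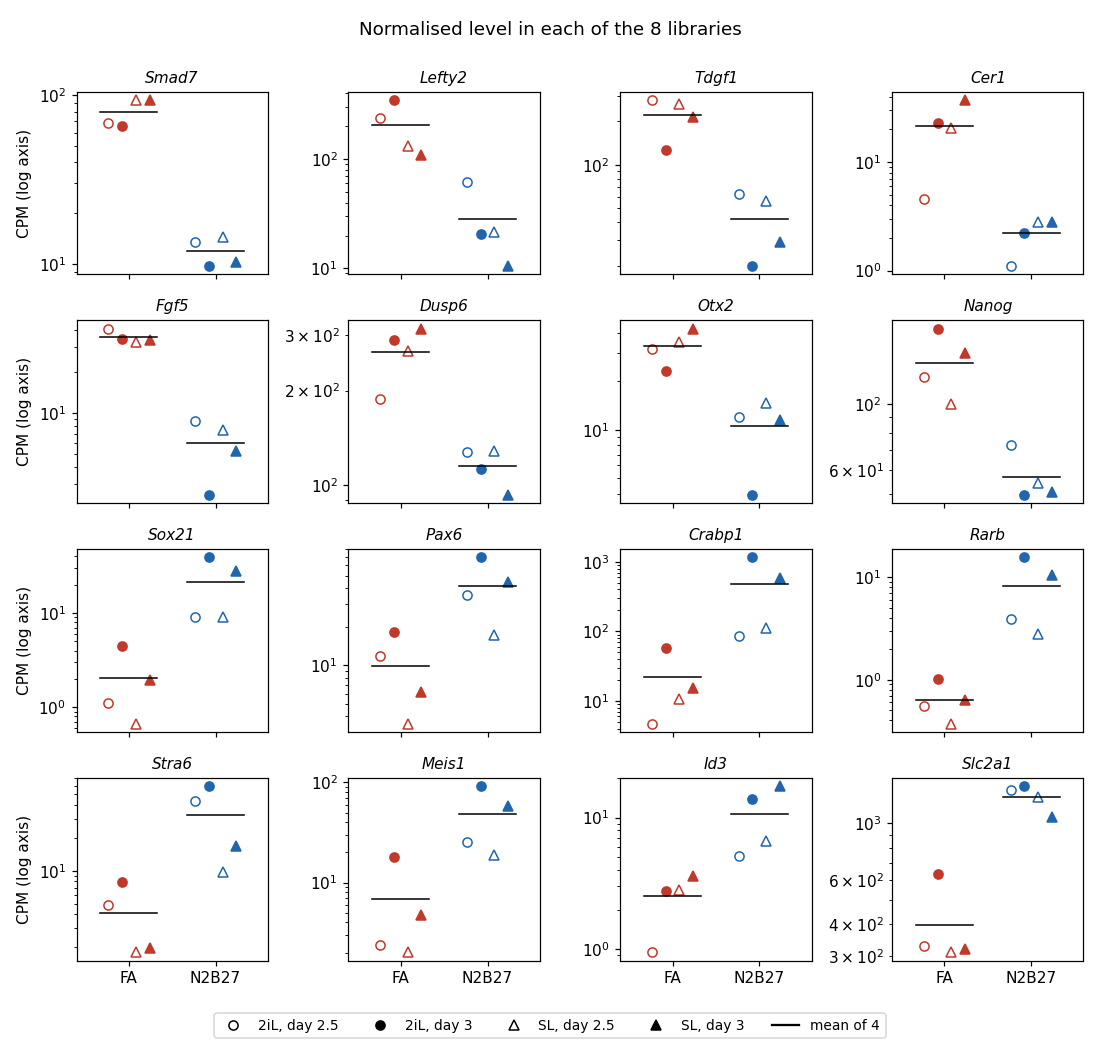
Level of 16 genes in each of the 8 libraries, as CPM on a log axis, with FA in red and N2B27 in blue; circles are 2iL and triangles SL libraries, open symbols day 2.5 and filled symbols day 3, and bars are means of 4. The 16 genes were chosen with earlier results known, so the separation of the groups follows from the choice. In 15 of the 16 panels the 2 groups do not overlap, against 11.9% of all genes tested. Pax6 is the exception, where FA from 2iL at day 3 (18.2 CPM) lies above N2B27 from SL at day 2.5 (17.3 CPM).

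Among 25 tested genes of the Fgf and ERK pathway (27 on the list), 8 were called higher and 5 lower, with a median of 0.35. The called share was 52%, against 23.6% for all genes. The ligand genes Fgf4, Fgf5, Fgf8 and Fgf17 were all among the higher. Fgf5, a marker of the post-implantation epiblast, stood at 41.1, 34.5, 32.9 and 34.2 CPM in FA and 8.78, 2.51, 7.49 and 5.22 CPM in N2B27. The FA values were even across media and days while those of N2B27 were lowest in 2iL at day 3, and the difference was 2.64 ± 0.27 (adjusted p = 0.00309). Fgf4, the ligand that ESCs make for themselves, had 98.7, 28.4, 60.9 and 48.8 CPM in FA and 30.7, 11.3, 27.4 and 17.8 CPM in N2B27, higher in each pair by 1.41 ± 0.09 (adjusted p = 0.000124) although the groups overlapped, both being lower at day 3 than at day 2.5. Fgf8 and Fgf17, ligands of the primitive streak, were higher by 1.75 ± 0.36 and 1.46 ± 0.34 at levels of at most 15.5 and 3.45 CPM. Of the feedback genes, Dusp6, the ERK phosphatase, was at 188, 289, 267 and 315 CPM in FA and 128, 112, 128 and 93.1 CPM in N2B27, a difference of 1.19 ± 0.20 (adjusted p = 0.0161). Etv4, Etv5 and Spry1 were higher by 1.09 ± 0.12, 0.67 ± 0.10 and 0.97 ± 0.18 (adjusted p = 0.00164, 0.00297 and 0.00891). For Spry4 the groups touched without overlapping, with 68.6 to 84.8 CPM in FA and 26.1 to 68.6 CPM in N2B27, yet 0.80 ± 0.26 did not pass (adjusted p = 0.098), and Spry2 and Dusp4 were at 0.17 ± 0.20 and 0.03 ± 0.08.

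Other genes of the pathway, the receptors first, were lower in FA. Fgfr1, Fgfr2 and Fgfr3 differed by -0.42 ± 0.07, -0.67 ± 0.10 and -1.53 ± 0.20, and none of the 3 had overlapping groups. Another ERK phosphatase, Dusp5, also ran opposite to Dusp6, at 10.4, 9.95, 9.83 and 10.3 CPM in FA and 31.3, 79.6, 25.6 and 38.3 CPM in N2B27. Its FA values lay within 9.83 to 10.4 CPM while N2B27 from 2iL at day 3 was highest, and the difference was -1.99 ± 0.30 (adjusted p = 0.0131). Fgf1, another ligand, was lower at -0.65 ± 0.20. The immediate early genes Egr1 and Fos were at 0.78 ± 0.55 and 0.42 ± 0.28 and did not pass.

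Pluripotency factors split. Nanog was at 123, 178, 99.7 and 148 CPM in FA and 72.6, 49.5, 54.2 and 50.6 CPM in N2B27, higher in every FA library, by 1.26 ± 0.22 (adjusted p = 0.0197). Of the 12 naive factors tested, Nr0b1 and Nr5a2 were also higher, by 2.23 ± 0.44 and 0.77 ± 0.22, and Klf2 and Tbx3 were lower, at -1.06 ± 0.18 and -1.20 ± 0.17. Esrrb, Klf4, Klf5, Tfcp2l1 and Rex1 (Zfp42), whose loss marks exit from the naive state, did not pass, with Zfp42 at 19.2 to 21.1 CPM in FA and 15.1 to 26.96 CPM in N2B27. Among 11 general factors, 4 were higher and 4 lower. Oct4 (Pou5f1) was at 458, 167, 366 and 318 CPM in FA and 255, 68.6, 230.4 and 123 CPM in N2B27, higher in each pair by 1.04 ± 0.12 (adjusted p = 0.00228), with day 3 below day 2.5 in all 4 courses. Sox2, its partner in pluripotent and in neural cells, was at 87.4, 95.6, 61.1 and 59.6 CPM in FA and 109, 146, 99.6 and 103 CPM in N2B27, lower in FA without overlap, at -0.61 ± 0.08 (adjusted p = 0.00207). Utf1, L1td1 and Zscan10 went with Oct4 (1.22 ± 0.25, 1.19 ± 0.26 and 0.39 ± 0.11), and Sall4, the RNA-binding Lin28a and Trim71 went with Sox2 (-0.59 ± 0.06, -0.87 ± 0.08 and -0.29 ± 0.05).

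Of the 16 genes of the formative and primed epiblast, 8 were called higher and 2 lower, with a median of 0.43. The called share was 62.5%, against 23.6% for all genes. Otx2, the homeobox factor that drives the passage from naive to primed pluripotency, had 31.9, 23.2, 35.4 and 42.6 CPM in FA and 12.0, 3.92, 14.7 and 11.6 CPM in N2B27, a difference of 1.73 ± 0.21 (adjusted p = 0.00329) with no overlap. In 2iL the Otx2 level differed by 1.05 on the log2 scale at day 0 already, while the SL pairs alone gave 1.58 (adjusted p = 0.00096). The DNA methyltransferases Dnmt3a and Dnmt3b were higher by 0.61 ± 0.12 and 0.46 ± 0.09, the zinc-finger factor Zic5 by 0.52 ± 0.08, and the epithelial factor Grhl2 by 1.26 ± 0.09. Pou3f1 (Oct6) and Foxd3 did not pass at 0.39 ± 0.13 and 0.93 ± 0.31. The lower genes were the SRY-box factors Sox3 (-1.30 ± 0.22) and Sox4 (-1.02 ± 0.11), which neural progenitors also express.

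Several primitive streak genes were higher in FA at low levels. Of 19 genes, 6 were too low to test, 7 of the 13 tested were called higher and 1 lower. The called share was 61.5%, against 23.6% for all genes. The SL pairs alone gave 8 higher and 2 lower with a median of 1.66. The 2iL pairs alone gave 2 and 2 with a median of 0.53. Gsc, a homeobox gene of the anterior streak and a Nodal target, was at 0.951, 4.31, 3.65 and 6.15 CPM in FA and 0.0686, 0.245, 0.456 and 0.296 CPM in N2B27, a difference of 3.78 ± 0.31 (adjusted p = 0.000324). Mixl1 reached at most 4.10 CPM in FA (2.60 ± 0.28), and T (Brachyury) at most 2.68 CPM (1.18 ± 0.29). Eomes, a T-box factor needed for endoderm, had 20.8, 35.5, 31.0 and 37.4 CPM in FA and 8.98, 5.64, 11.3 and 9.96 CPM in N2B27, with all FA libraries above all N2B27 libraries, by 1.79 ± 0.24 (adjusted p = 0.00529). Lhx1, of the anterior mesendoderm, was higher by 1.85 ± 0.39, and Hand1, a factor of extraembryonic and lateral mesoderm, was lower at -1.36 ± 0.32. The paraxial mesoderm genes Tbx6, Msgn1, Mesp1 and Evx1 were not tested. Of 11 endoderm genes Cer1 and Foxa2 (0.61 ± 0.13) were higher, and Sox17, Gata4 and Gata6 were lower (-2.04 ± 0.28, -0.64 ± 0.19 and -1.20 ± 0.16), each of which parietal and visceral endoderm express too. The called share of the endoderm list was 45.5%.

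Neural progenitor genes were the list with the largest called share of the 22 lists. Of 31 genes, 17 could be tested, 12 were called lower and 2 higher in FA, and the median was -1.55. The called share was 82.4%, against 23.6% for all genes. Sox1, the first specific marker of neural ectoderm, was at 49.1, 83.5, 31.2 and 42.2 CPM in FA and 114, 239, 76.8 and 128 CPM in N2B27. It was lower in each FA library than in its own pair, at -1.41 ± 0.07 (adjusted p = 4.72e-05), and FA was not without it, since FA from 2iL at day 3 exceeded N2B27 from SL at day 2.5. Sox21, a repressor of pluripotency genes, had 1.10, 4.45, 0.67 and 1.97 CPM in FA and 9.05, 39.1, 9.18 and 27.7 CPM in N2B27, and no FA library reached the lowest N2B27 library (-3.37 ± 0.16, adjusted p = 3.46e-05). Pax6, of dorsal neural tube and forebrain, was at 11.8, 18.2, 3.50 and 6.15 CPM in FA and 35.4, 69.4, 17.3 and 44.8 CPM in N2B27, a difference of -2.11 ± 0.21 (adjusted p = 0.00198) although Pax6 had been the other way between the 2iL libraries of day 0 (1.04). Hes3, a Hes repressor of neural stem cells, was at 0.11 to 0.526 CPM in FA and at 2.54 to 7.65 CPM in N2B27 (-4.11 ± 0.34). The patterning factors Zic1, Irx3, Pax3 and Lhx2 were lower at -2.80, -1.92, -2.22 and -1.64 on the log2 scale, and Ptprz1 and Fabp7, of radial glia, at -1.76 and -1.55. En2 and Hesx1, of the midbrain and the anterior neural plate, were called higher (0.64 ± 0.16 and 1.13 ± 0.29). Nes, which encodes nestin, was at 54.6 to 82.1 CPM in FA and 39.8 to 82.3 CPM in N2B27 and did not pass (adjusted p = 0.126). Of 11 neuronal genes tested, Stmn3, Gap43 and Onecut2 were lower and none was higher, with Tubb3, the neuronal tubulin, at -0.18 ± 0.11. That is a called share of 27.3%, against 23.6% for all genes.

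Retinoic acid genes held some of the largest differences. The pathway list had 16 genes, of which 13 were tested, 6 called lower and 2 higher. The called share was 61.5%, against 23.6% for all genes. Crabp1, which encodes a cytosolic binding protein of retinoic acid, was at 4.72, 57.9, 10.8 and 15.1 CPM in FA and 85.3, 1158, 113 and 579 CPM in N2B27. N2B27 rose steeply from day 2.5 to day 3, no FA library reached it, and the difference was -4.30 ± 0.37 (adjusted p = 0.00511), with an adjusted p of 0.25 in the SL pairs alone. Crabp2, which hands retinoic acid to its receptors, had 18.2, 15.7, 10.3 and 10.3 CPM in FA and 58.6, 198, 43.8 and 138 CPM in N2B27, lower at -2.81 ± 0.52 (adjusted p = 0.038, and 0.202 in SL alone). Stra6, the cell-surface receptor for retinol carried by its binding protein, was at 4.83, 7.94, 1.79 and 1.97 CPM in FA and 43.2, 59.5, 9.70 and 16.9 CPM in N2B27. It was higher in 2iL than in SL within both conditions, and FA was lower in all 4 pairs without overlap (-2.96 ± 0.13, adjusted p = 2.68e-05). Rdh10, the dehydrogenase that makes retinal, was lower at -0.85 on the log2 scale, and the gamma receptor Rarg was higher by 0.54 ± 0.11.

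A receptor and a degrading enzyme that retinoic acid itself induces moved in opposite directions. Rarb, the beta receptor, was at 0.549, 1.005, 0.372 and 0.634 CPM in FA and 3.91, 15.6, 2.80 and 10.49 CPM in N2B27, lower in FA without overlap, at -3.55 ± 0.25 (adjusted p = 0.000183). Cyp26a1, which degrades retinoic acid, was at 17.0, 66.5, 46.5 and 71.7 CPM in FA and 3.63, 8.40, 15.5 and 18.4 CPM in N2B27, higher in each pair by 2.17 ± 0.24 (adjusted p = 0.00374). Both genes carry near their start the direct repeat with a spacer of 5 bases (DR5) that retinoic acid receptors bind, searched here on both strands as the half-site AGGTCA, or in its place GGGTCA, further the variant AGTTCA and last the variant GGTTCA, followed after 5 bases of any kind by another half-site in the same orientation. The 30 bases around it are shown because the same motif sits in a gene that was lower and in a gene that was higher, with the 2 repeats in capitals.
Rarb: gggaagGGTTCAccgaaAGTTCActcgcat
Cyp26a1: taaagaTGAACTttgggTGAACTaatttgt
The Rarb stretch lies at chr14:16575506-16575535 on the minus strand of GRCm38, 53 bases before the RefSeq start and within an exon of the GENCODE transcripts Rarb-201 and Rarb-207. The Cyp26a1 stretch lies at chr19:37697770-37697799 on the plus strand, with the repeat 32 bases before the RefSeq start and on the opposite strand, so that it reads as its complement here. Over all RefSeq promoter windows (250 bases before to 50 after a start) the motif was in 32 of 32851, or 0.0974%. Those windows belonged to 31 gene symbols, of which 5 were tested, with Rarb lower and 4 higher: Cyp26a1, Blvrb (0.94), Syndig1 (0.70) and Gm4631 (0.31). The motif is a description of these windows, and binding was not measured.

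Retinoic acid can switch on Hox genes of the hindbrain. Of 16 Hox, Cdx and Meis genes tested, 6 were called lower in FA, Meis1 and Meis2 among them, 2 were called higher and 8 were not called. The called share was 50%, against 23.6% for all genes. Hoxb1, of the hindbrain, was at 5.05, 12.3, 4.25 and 4.12 CPM in FA and 17.1, 22.5, 13.9 and 22.8 CPM in N2B27. The groups did not overlap, with a difference of -1.65 ± 0.25 (adjusted p = 0.00659). Hoxa2 and Hoxb2 were lower at -1.90 and -1.25, and Meis1, a Hox cofactor, had 2.38, 18.1, 2.01 and 4.69 CPM in FA and 25.3, 91.9, 18.7 and 58.7 CPM in N2B27, a difference of -3.06 ± 0.24 (adjusted p = 0.00118). Meis2 was lower at -2.62 ± 0.44. The trunk genes Hoxb5 and Hoxb9 went up instead, by 1.76 ± 0.41 and 1.67 ± 0.35, with Hoxb9 at 1.90, 15.1, 1.79 and 3.81 CPM in FA and 1.30, 2.88, 0.977 and 0.771 CPM in N2B27. Further back in the Hoxa cluster, Hoxa10 was at 5.89, 14.16, 2.01 and 3.93 CPM in FA and 0.891, 0.123, 0.456 and 0.296 CPM in N2B27, higher without overlap by 3.72 ± 0.62 (adjusted p = 0.0112), but Hoxa10 was already apart by 1.24 between the 2iL libraries of day 0, and the SL pairs alone gave 2.95 (adjusted p = 0.00421).

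Among the single genes with large downward differences, Egr2 (Krox20), of rhombomeres and neural crest, had 0.11, 0.335, 0.372 and 0.254 CPM in FA and 0.686, 14.8, 1.89 and 19.98 CPM in N2B27, with N2B27 at day 3 far above day 2.5 (-4.90 ± 0.57, adjusted p = 0.00297). Foxb1, Ednrb and Robo2, of hindbrain, crest and growing axons, showed the same order of days in N2B27 and were lower at -4.22, -4.21 and -4.23. Zbtb16 (Plzf), of neural rosettes, was lower at -3.67 ± 0.22, with 0.11 to 1.24 CPM in FA and 1.85 to 16.6 CPM in N2B27, after a day 0 difference of 1.39 in 2iL.

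BMP, Wnt and Notch genes contributed smaller sets. The called shares of these lists were 38.9%, 33.3% and 46.7%, against 23.6% for all genes. Of 18 BMP genes tested 6 were lower and 1, the receptor Bmpr2 (0.31 ± 0.07), was higher. The Id genes, BMP targets that hold back bHLH factors, were lower together: Id3 was at 0.951, 2.78, 2.83 and 3.62 CPM in FA and 5.07, 13.9, 6.64 and 17.3 CPM in N2B27, a difference of -2.07 ± 0.21 (adjusted p = 0.000664) without overlap, and Id1 and Id2 differed by -1.45 ± 0.15 and -1.47 ± 0.19. The ligand Bmp7, the carrier Smad5 and Fstl1 were lower at -0.83, -0.24 and -0.48, and Bmp4, Smad1 and Smad6 did not pass. In the Wnt list, 4 of 21 tested genes were higher and 3 lower. The median of this list was -0.14 in the 2iL pairs alone and 0.11 in the SL pairs alone, so the list had no common direction. Wnt8a, a Wnt ligand of the posterior epiblast, was at 31.3, 42.4, 13.0 and 10.6 CPM in FA and 140.2, 154, 59.3 and 72.4 CPM in N2B27, with no overlap and a difference of -2.22 ± 0.14 (adjusted p = 0.000351). The Wnt feedback gene Axin2 was at 10.7, 13.0, 17.5 and 15.4 CPM in FA and 23.7, 34.0, 23.6 and 30.8 CPM in N2B27 and lower at -0.997 ± 0.15 (adjusted p = 0.00385), while the receptor Fzd5 was higher by 1.28 ± 0.30 (adjusted p = 0.0476). Wnt11, Tcf7 and Sfrp2 were also higher (1.11 ± 0.26, 0.63 ± 0.13 and 0.38 ± 0.09), and the Wnt inhibitor Apcdd1 was lower (-0.58 ± 0.16). Among 15 tested Notch genes, Notch3 (1.27 ± 0.11), Hes6 (1.09 ± 0.13) and Rbpj (0.44 ± 0.11) were higher, and Notch1, Notch2, the ligand Dll1 and the glycosyltransferase Lfng were lower, at -0.37, -0.65, -0.70 and -1.58. Notch3 was at 192, 423, 278 and 291 CPM in FA and 96.7, 133, 122 and 123 CPM in N2B27, so that the 4 FA libraries stood above the N2B27 libraries with room between them.

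Adhesion genes divided into an epithelial and a mesenchymal side. E-cadherin (Cdh1) had 239, 128, 309 and 327 CPM in FA and 139, 65.3, 161 and 121 CPM in N2B27, higher in each pair by 1.03 ± 0.10 (adjusted p = 0.000795), and P-cadherin (Cdh3), Epcam and the tight junction gene Cldn7 were higher by 1.45 ± 0.19, 0.93 ± 0.08 and 1.21 ± 0.15. N-cadherin (Cdh2), which neural ectoderm takes on in place of E-cadherin, was at 17.4, 55.1, 36.1 and 41.7 CPM in FA and 42.4, 121, 43.8 and 98.7 CPM in N2B27, lower in each pair at -0.99 ± 0.18 (adjusted p = 0.0154, and 0.125 in SL alone). Zeb2, a repressor of E-cadherin that is also a neural determinant, was at 19.6, 40.9, 13.9 and 19.7 CPM in FA and 66.1, 149, 55.1 and 107 CPM in N2B27, lower without overlap (-2.005 ± 0.11, adjusted p = 8.97e-05). Zeb1, Vim, Cdh6 and Cdh11 were lower at -0.85, -0.38, -1.20 and -1.22, whereas Snai1, Twist1 and Fn1 did not pass.

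The hypoxia response list of 19 genes held 4 called genes, among them the glucose transporters, a share of 21.1% against 23.6% for all genes. Slc2a1 (Glut1) was at 328, 631, 311 and 319.7 CPM in FA and 1356, 1399, 1267 and 1057 CPM in N2B27. Every N2B27 library was above 631 CPM, the highest FA value, and the difference was -1.74 ± 0.17 (adjusted p = 0.00329). Slc2a3 (Glut3) was lower at -0.77 ± 0.10, P4ha2 was lower and Car9 higher, at 0.952 to 2.49 CPM in FA, and the other 15, among them Vegfa, Pdk1, Ldha and Pgk1, did not pass. Of 20 sterol synthesis genes 3 were lower (Hmgcs1, Sc5d and Nsdhl) and Fdps was higher, and of 15 p53 targets Mdm2 and Plk2 were higher, shares of 20% and 13.3% against 23.6% for all genes. In the X inactivation centre 2 of 8 tested genes were called (25%, near the share of all genes): Rlim (Rnf12) was higher by 0.42 ± 0.07 and Chic1 by 0.33 ± 0.10. Xist was at 4.86, 1.005, 2.01 and 1.71 CPM in FA and 8.23, 3.80, 1.82 and 1.36 CPM in N2B27, -0.62 ± 0.35 (adjusted p = 0.231). Of 7 germ cell genes tested, Kit (-0.92 ± 0.09) and Tfap2c (-1.07 ± 0.27) were lower, and of 6 neural crest and surface ectoderm genes Tfap2c and Dlx3 (-1.95 ± 0.33). The called shares of these small lists were 28.6% and 33.3%.

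Of the genes on none of these lists, Ephx3 and Trim67 had the largest upward differences. Ephx3, an epoxide hydrolase of epithelia, was at 3.04, 8.23, 7.97 and 5.58 CPM in FA and 0.343, 0.245, 0.521 and 0.0593 CPM in N2B27. Trim67, a ubiquitin ligase known from neurons, was at 4.75, 17.9, 5.88 and 9.96 CPM in FA and 0.686, 0.613, 0.651 and 0.178 CPM in N2B27. FA exceeded N2B27 in every library for both, by 4.40 ± 0.36 and 4.10 ± 0.41. Nphs1 (nephrin) and Kirrel2, adhesion proteins of the immunoglobulin family that bind each other, are adjacent genes read in opposite directions (chr7:30458315-30487223 and chr7:30447534-30457690), and differed alike. Nphs1 was at 34.7, 7.61, 23.0 and 13.4 CPM in FA and 5.01, 0.613, 3.58 and 1.30 CPM in N2B27. Kirrel2 was at 13.0, 4.93, 16.02 and 8.25 CPM in FA and 2.19, 0.245, 2.15 and 0.652 CPM in N2B27. In FA day 2.5 lay above day 3 in each course for both, and they were higher by 2.99 ± 0.16 and 3.11 ± 0.24. Irs4, an adaptor of insulin and Fgf signalling on the X chromosome, had the smallest upward p, with 21.5, 63.9, 72.3 and 118 CPM in FA and 4.39, 10.7, 11.5 and 14.6 CPM in N2B27 (2.67 ± 0.11, adjusted p = 2.68e-05). Pga5, a pepsinogen, was higher in each pair by 3.19 ± 0.26, with SL above 2iL. Oasl2, of the interferon response, was higher by 3.02 ± 0.41, with a day 0 difference of 1.21 in 2iL. Has2, which makes hyaluronan, and Dppa5a, an RNA-binding protein of ESCs, were higher by 1.73 ± 0.09 and 1.33 ± 0.08 without overlap.

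Downward, the smallest p was that of Epha4, an ephrin receptor of the hindbrain and axon guidance, at 11.6, 17.0, 12.7 and 20.2 CPM in FA and 72.4, 109, 59.0 and 116 CPM in N2B27 (-2.52 ± 0.09, adjusted p = 1.21e-05). Fignl2 and Rgma, the latter a BMP co-receptor that also guides axons, were lower at -1.97 ± 0.09 and -2.87 ± 0.14. Fignl2 had a day 0 difference of -1.05 in 2iL, and the SL pairs alone gave -1.99 (adjusted p = 9.45e-05). Zfp503, a repressor linked to retinoic acid signalling, Enpep, an aminopeptidase, Btbd17 and Tmem132c were lower at -4.30, -4.29, -3.71 and -3.42 on the log2 scale. Btbd17 differed from the hindbrain genes in being higher at day 2.5 than at day 3 in N2B27 from both media, 29.6 and 18.6 CPM against 22.4 and 12.8 CPM.

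Whether the effect of FA depended on the starting medium was tested as the difference between the 2iL and the SL pairs. It called 28 genes, 0.198% of 14116, and 6 of 13902 were called when genes more than 1 log2 apart at day 0 were left out. Leaving out 1 pair at a time gave 48, 5, 153 and 5 calls (2iL day 2.5, 2iL day 3, SL day 2.5 and SL day 3), so that the count rests on single pairs. Among the 28 were Gm18025, Erdr1, Hist1h2be and Rps27, which set the 2iL EpiSC libraries apart (-3.81 ± 0.35 and -2.24 ± 0.21 for the first and second, 2iL minus SL). Rps12-ps3, a ribosomal pseudogene, was the upward counterpart. Of the listed genes, the 28 held Dab2, Pdgfra and Dkk1. Dab2, an endocytic adaptor of that tissue, was at 74.6, 119, 169 and 174 CPM in FA and 57.9, 104, 304 and 365 CPM in N2B27. It was lower in FA from SL at -0.96 on the log2 scale and at 0.28 in 2iL, a difference between media of 1.24 ± 0.13 (adjusted p = 0.0259). Lrpap1, a chaperone of the receptors that Dab2 serves, and the uridine phosphorylase Upp1 followed with 1.11 ± 0.12 and 1.12 ± 0.11. Pdgfra, of primitive endoderm and mesoderm, was at 9.03, 10.3, 8.34 and 8.63 CPM in FA and 20.8, 33.2, 71.4 and 101 CPM in N2B27, lower in all pairs but far more in SL (1.88 ± 0.22, adjusted p = 0.0334). Dkk1, a Wnt antagonist, was higher in 2iL (1.42) and at -0.40 in SL. Srgn went up in 2iL (1.91) and not in SL (0.18), and the motor gene Kif1a was at -0.31 in 2iL and 0.60 in SL.

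Of 17 extraembryonic endoderm genes, Dab2 and Pdgfra passed this test. Over the 4 pairs 5 of the 17 were called lower (Sox17, Gata4, Gata6, Ttr and Apoe) and 2 higher. That is a called share of 41.2%, against 23.6% for all genes. Cubn, the endocytic receptor cubilin, was at 254, 271, 515 and 418 CPM in FA and 140.3, 278, 1088 and 1354 CPM in N2B27, with N2B27 from SL above all other libraries, and did not pass over the 4 pairs (-0.50 ± 0.56, adjusted p = 0.582), whereas the SL pairs alone gave -1.39 (adjusted p = 0.00248). At day 0 Cubn differed by -1.08 in 2iL. Col4a1 and Lamb1, of its basement membrane, had -1.60 and -1.11 in SL alone. Apob, the apolipoprotein of yolk sac endoderm, ran against them at 122, 281, 346 and 551 CPM in FA and 25.6, 54.7, 118 and 184 CPM in N2B27, higher in every pair by 1.93 ± 0.17 (adjusted p = 0.00163), and so did the forkhead gene Foxq1 (1.67 ± 0.35).

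**Figure D3:**
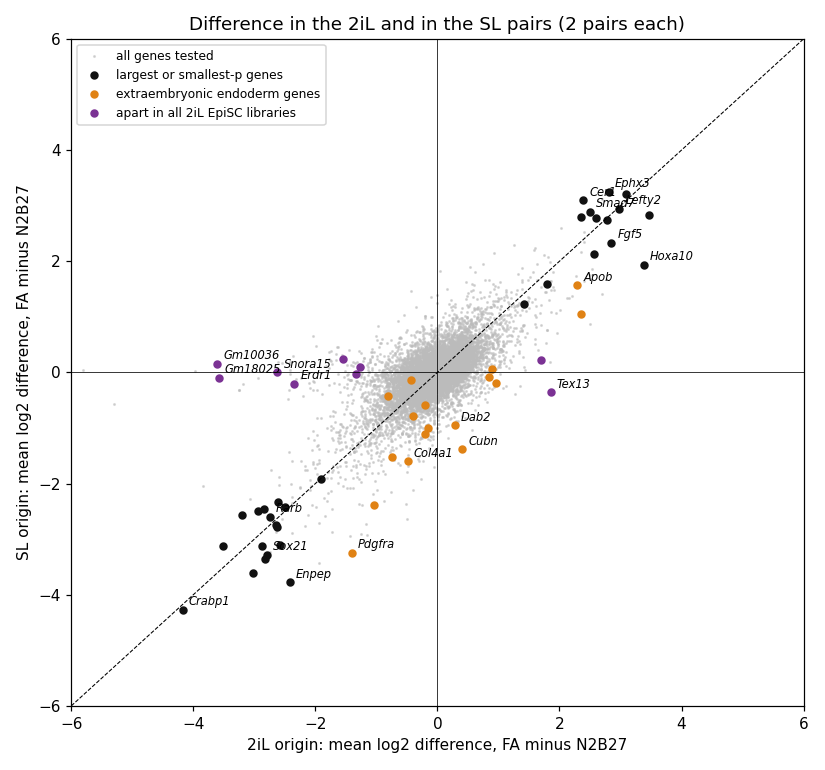
Each point is 1 gene, with the mean log2 difference of FA minus N2B27 over the 2 pairs from 2iL on the horizontal and over the 2 pairs from SL on the vertical axis; black points are the genes with the largest differences or smallest p, orange points extraembryonic endoderm genes and purple points the genes that set the 2iL EpiSC libraries apart. Black points lie near the dashed line of equal difference, purple points lie near 0 on the SL axis, and Pdgfra, Cubn and Dab2 lie below the line.

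Between day 2.5 and day 3 no gene passed (0.00% called), by edgeR, with 903 genes at an unadjusted p under 0.05 and 31 called by DESeq2. Leaving out 1 pair gave 0, 26, 5 and 78 calls. Crabp2 came nearest, with -1.87 at day 2.5 and -3.70 at day 3 (adjusted p = 0.0629). Compared with days 1 to 2, in 6 further pairs, the effect of FA had changed for 792 of 13941 genes (5.68%), 344 upward and 448 downward, and 764 of the 792 had the larger difference at days 2.5 and 3. In 320 of the 792 the difference had the opposite sign at days 1 to 2. The SL pairs alone gave 393 calls, and there were 408 without the 2iL pair of day 3 and 315 without the SL pair of day 3. Sox21 and Sox1 were the neural genes with the smallest p: the difference of Sox21 went from -0.54 to -3.37 (adjusted p = 0.000106) and that of Sox1 from -0.30 to -1.42. Nebl, a nebulin relative, Ptn, the growth factor pleiotrophin, and Scrn1 opened in the same way, at -3.61 ± 0.34, -2.44 ± 0.29 and -1.09 ± 0.11. Upward, Atf4, the transcription factor of the amino acid response, went from 0.03 to 0.62 (adjusted p = 0.0019), beside Mfap3l, Mctp2, Oxnad1 and the neuronal serpin Serpini1 (0.86 ± 0.12, 0.90 ± 0.13, 0.72 ± 0.11 and 1.26 ± 0.19).

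The pathway genes were followed from day 1 in single pairs, and the timing was not compared between genes by a test. Lefty2 was already apart at day 1, by 3.86 in 2iL and 2.96 in SL, when Nodal was at 0.44 and 0.19 and Tdgf1 at 0.30 and 0.34. By day 3 Nodal had reached 3.60 and 2.55. A change of the difference between days 1 to 2 and days 2.5 and 3 was called for Tdgf1 (1.55 ± 0.33, adjusted p = 0.0346) and Smad7 (1.07 ± 0.26, adjusted p = 0.0488). Crabp1 lay within 0.22 and -1.05 up to day 2 and at -4.02 and -3.31 at day 2.5, a change of -4.08 ± 0.38 (adjusted p = 0.0019). Of 13 retinoic acid genes in that test 5 went down further and 1 up, of 16 neural progenitor genes 5 went down and none up, and the differences of Id1, Id2 and Id3 changed by -1.62 ± 0.23, -1.49 ± 0.29 and -1.83 ± 0.25. On the epiblast side, Pou5f1 went from 0.13 to 1.03 and Otx2 from 0.33 to 1.72 (adjusted p = 0.00757 and 0.0116).

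Against days 5 and 7, in 3 further pairs (no 2iL day 5 pair), 1070 of 14171 genes had changed their difference (7.55%), 543 above and 527 below the later value, and 155 of them had the larger difference at days 2.5 and 3. In 500 of the 1070 the difference had the opposite sign at days 5 and 7. The SL pairs alone gave 0 calls by edgeR, with 1675 genes at an unadjusted p under 0.05, and leaving out 1 pair of days 2.5 and 3 left 453, 540, 470 and 657 calls in the order of the libraries. Wnt8a turned from -2.22 to 2.14 on days 5 and 7 (adjusted p = 0.000167), and Slc2a1 from -1.73 to -0.16 (adjusted p = 0.00555). Rarb and Sox21 were closer again later, at -1.25 and -1.80. Of 17 extraembryonic endoderm genes 13 had a lower FA minus N2B27 difference at days 5 and 7 than at days 2.5 and 3, with Cubn at -4.32 and Dab2 at -2.80 later, and Pdpn, Atp1b1, Cmklr1, Frmpd1 and Smoc1 had the smallest p of that direction, with later differences of -1.79, -2.001, -4.72, -3.81 and -2.38. In the other direction stood Igfbp3, an IGF-binding protein (0.74 to 3.50), Tcfl5, Fkbp10 and St6gal1 (1.68, 1.95 and 1.28 later), and Nanog, whose difference grew to 2.99 (adjusted p = 0.0341).

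**Figure D4:**
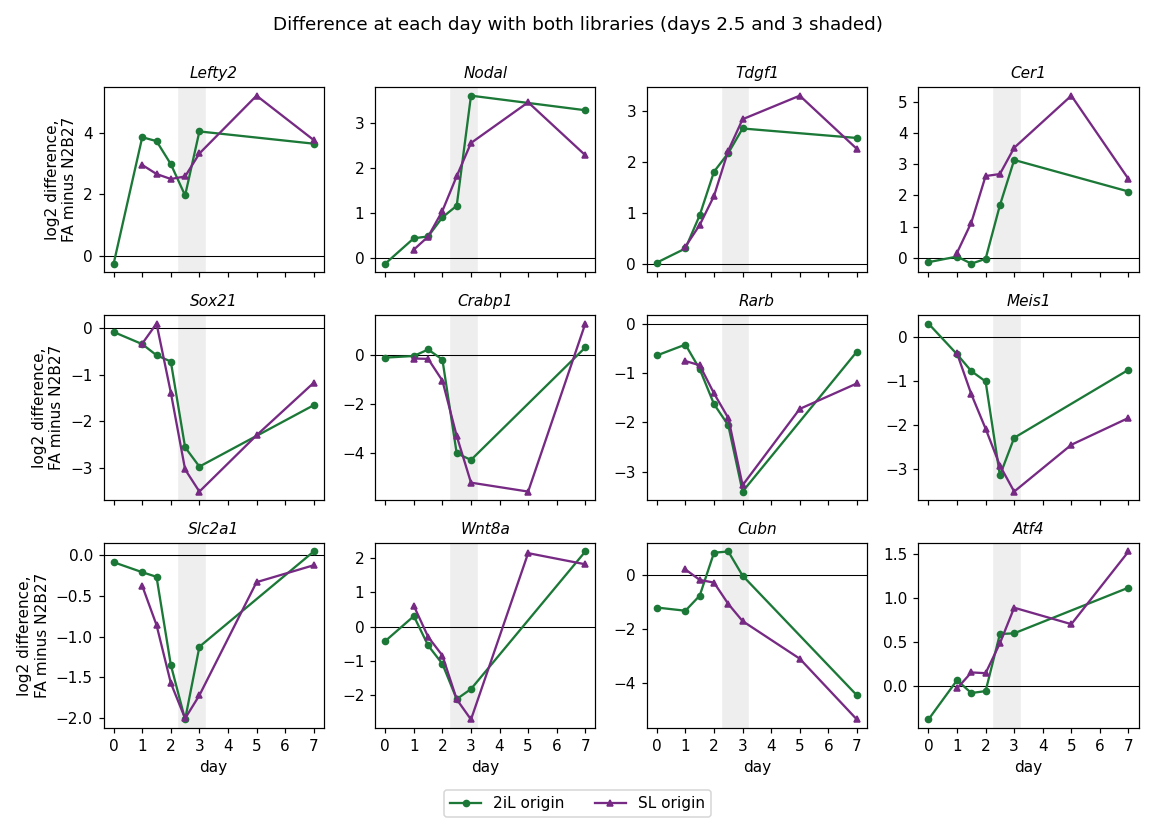
Log2 difference of FA minus N2B27 (vertical axis) in 12 genes at each day with a library of both conditions (horizontal axis), for the 2iL course (green circles, from day 0) and the SL course (purple triangles, from day 1), with days 2.5 and 3 shaded. Each point is 1 pair without error; Lefty2 is above 2 from day 1 in SL, Crabp1 drops below -3 at day 2.5 in both courses, and Wnt8a is below 0 at days 2.5 and 3 and above 0 at day 7.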

How the data were processed

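RNA-seq was measured in 45 libraries of the series, 1 per cell condition, starting medium and day, and 8 of these were compared here. RNA was depleted of ribosomal RNA and made into directional libraries. Per the study's methods the reads were mapped to GRCm38 with TopHat2 and Ensembl gene models and counted per gene with featureCounts, and the authors deposited these counts as whole numbers, not normalized and not pooled, in tables of 35372 genes. Counts of 1 gene are thus comparable between libraries after scaling, and levels of different genes, which also depend on length, were not compared.

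Genes were kept by edgeR's filterByExpr with the condition as group, scaled with TMM and fitted with edgeR 4.0.16 (R 4.3.3) by estimateDisp, robust glmQLFit and glmQLFTest, with the pair of medium and day as a block. SE is the size of the log2 difference over the root of F. p-values were adjusted by Benjamini-Hochberg over all genes tested, and 0.05 was the threshold. Single-pair differences used log2(CPM + 0.5). The tests of medium, day and period added the product of FA and that factor, with further pairs of days 1 to 2 or of days 5 and 7. Deviations from the group mean correlated by 0.755, 0.570, 0.714 and 0.419 within the 4 pairs, so the pair was kept in the fit. Fits were also run on counts simulated from the fitted model with known changes, which held no dependence between days of a time course.

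Members, lists and named genes were chosen with earlier results of these data known. Named by rank were the 12 called genes with the largest difference in each direction (mean of at least 5 CPM in the higher condition and the same direction in all 4 pairs), the 5 with the smallest p in each direction, and up to 5 in each direction of each further test. The rest were taken from 22 lists and the marker lists by role. Alternatives were DESeq2 1.42.0, RLE factors, other filters on low counts, no block, a spread from all 45 libraries, summed days and fewer pairs. Promoter sequences came from RefSeq (GRCm38.p6) and exons from GENCODE M21. The libraries differed by far more than sampling noise from each other, so none was a copy. Some genes are not reported here.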

Additional observations from a re-analysis of the deposited data

Results flagged for a closer look

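Among 98 groups of 4 libraries examined for the ranked and plotted genes, the marker sums and the depth, 3 held a library far from the other 3, where chance flags about 1 in 20 groups. FA from 2iL at day 3 was apart for Meis1, at 18.1 CPM, and for Slc2a1, at 631 CPM, in both cases towards the N2B27 level and still below every N2B27 library. For Trim67, N2B27 from SL at day 3 was apart on the low side, at 0.178 CPM, a level of few reads.

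The effect of FA differed between 2iL and SL for 28 genes, and the values below are log2 differences of 2iL minus SL. They were -1.38 for Rps27, -2.24 for Erdr1, -1.31 for Hist1h2be and -3.81 for Gm18025, which had differed in the same sense at day 0, and 1.47 for Rps12-ps3, which had too. For Kif1a the value was -0.92, for Srgn 1.73, for Upp1 1.12, for Lrpap1 1.11 and for Dab2 1.24. The summed extraembryonic endoderm markers, of which Dab2 is 1, were apart between conditions in SL and overlapped in 2iL, and their part in the values for Upp1 and Lrpap1 was not tested.

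Between days 1 to 2 and days 2.5 and 3 the effect changed for 792 genes. The log2 change was -2.83 for Sox21, -3.61 for Nebl, -1.09 for Scrn1, -1.12 for Sox1 and -2.44 for Ptn. Upward it was 0.86 for Mfap3l, 0.58 for Atf4, 0.90 for Mctp2, 0.72 for Oxnad1 and 1.26 for Serpini1.

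Between days 2.5 and 3 and days 5 and 7 it changed for 1070 genes, given here as the value at days 2.5 and 3 minus the later one. It was -4.37 for Wnt8a, -1.50 for Tcfl5, -1.99 for Fkbp10, -1.99 for St6gal1 and -2.75 for Igfbp3. It was 2.02 for Pdpn, 2.02 for Atp1b1, 4.001 for Cmklr1, 2.95 for Frmpd1 and 1.88 for Smoc1.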

How the results depend on the processing

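Of 197 called genes named above, 197 kept their sign under each alternative run that tested them, and 94 also stayed past the threshold under all of them except the fit without any block and the spread from 45 libraries. The count of 3336 calls fell to 1776 to 2708 when 1 pair was left out, to 1931 with the SL pairs alone, and to 1716 and 1645 with day 2.5 or day 3 alone. Without the replicate block it was 234 with condition alone and 3113 with medium and day as terms, and 565 with the spread from all 45 libraries. Of 139 list members called, the fit with condition alone called 30 and the 45-library spread called 35, and of the 31 genes named by rank condition alone called 16. Klf5, not called over the 4 pairs, was lower with the day 2.5 pairs alone (-0.49, adjusted p = 0.032).

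For the effect of medium, 28 calls became 99 with DESeq2 (28.3% of them upward, against 46.4%), 125 with no filter on low counts, 6 without genes apart at day 0 (chosen after seeing the data) and 5 to 153 without 1 pair. For day, 0 calls became 31 with DESeq2, 66 with no filter, 1 with RLE factors and 0 to 78 without 1 pair. For days 1 to 2, 792 became 315 to 860 without 1 pair, 173 without the replicate block (30.1% upward, against 43.4%) and 393 with the SL pairs alone. For days 5 and 7, 1070 became 453 to 657 without 1 pair, 1024 without the replicate block and 0 with the SL pairs alone. Both SL-alone fits were chosen after seeing the data and use fewer libraries. The cause of the other changes was not tested. At this depth, genes at a few reads have differences that rest on counting error.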

Other observations

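The genes below were grouped after their values had been seen, so their counts describe these libraries. Of 37 interferon-inducible genes, 29 were tested, 14 were higher and 2 lower in FA, with a median log2 difference of 0.83 (all genes, -0.01). The called share was 55.2%, against 23.6% for all genes. The guanylate-binding GTPases, the immunity-related GTPases and the immunoproteasome held most of the 14. Gbp2b was at 12.0, 30.5, 4.25 and 3.93 CPM in FA and 3.57, 2.33, 1.04 and 0.534 CPM in N2B27, a difference of 2.61 ± 0.36 (adjusted p = 0.00507), with FA from 2iL at day 3 highest and no overlap. Reads may be shared between the Gbp copies. Irgm1 was at 28.1, 20.5, 12.6 and 5.27 CPM in FA and 10.1, 2.15, 3.71 and 2.13 CPM in N2B27 (1.93 ± 0.32, adjusted p = 0.0115), with a day 0 difference of 0.99 in 2iL. Irf1, the transcription factor of this response, was at 76.8, 75.3, 37.5 and 30.5 CPM in FA and 39.2, 13.6, 18.0 and 11.3 CPM in N2B27, higher in each pair by 1.47 ± 0.29 (adjusted p = 0.0276, with 0.000795 in SL alone and 0.316 in 2iL alone). The peptide carrier Tap2 and the proteasome subunit Psmb10 were higher by 1.39 ± 0.20 and 1.62 ± 0.31. Stat2 and Irf9, factors that carry the interferon signal, did not pass at -0.12 and -0.08, Irf7 and Ifit3 were near 0, and Ifitm1 and B2m were lower (-1.59 ± 0.28 and -0.66 ± 0.10). In the SL pairs alone 11 were higher and 2 lower, and in the 2iL pairs alone 5 and 3.

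Amino acid genes moved as a broad, shallow set. Of 32 genes of the ATF4 response, all tested, 21 were higher and 1 lower, with a median of 0.48, and 22 were higher in the SL pairs alone. In the 2iL pairs alone 10 were higher and 1 lower. The called share over the 4 pairs was 68.8%, against 23.6% for all genes. Atf4 itself was at 304, 354, 196 and 216 CPM in FA and 206, 238, 142 and 116 CPM in N2B27, higher in each pair by 0.62 ± 0.08 (adjusted p = 0.00164). Slc7a11, the cystine carrier, had 12.1, 16.7, 6.85 and 12.9 CPM in FA and 6.45, 4.60, 3.45 and 2.73 CPM in N2B27 (1.49 ± 0.23, adjusted p = 0.0052). The mitochondrial folate enzyme Mthfd2, the kinase-like Trib3 and the serine enzymes Psat1, Phgdh and Psph were higher by 0.86 ± 0.15, 1.09 ± 0.18, 0.38 ± 0.08, 0.39 ± 0.10 and 0.45 ± 0.12. Asns and Sesn2, targets of the same factor, did not pass (0.22 ± 0.14 and 0.06 ± 0.07), and Ddit4 was lower (-0.47 ± 0.12).

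Eph receptors and their ephrin ligands, which sort cells at boundaries of the hindbrain and elsewhere, were mostly lower in FA. Of 18 tested, 11 were lower and 1 higher, with a median of -0.66. That is a called share of 66.7%, against 23.6% for all genes. The SL pairs alone gave 10 lower and 3 higher, and the 2iL pairs alone 8 and 0. Ephb1 was at 0.585, 1.58, 1.12 and 1.78 CPM in FA and 5.42, 9.87, 3.91 and 7.05 CPM in N2B27 (-2.42 ± 0.24, adjusted p = 0.000664), without overlap. The ligands Efnb3, Efna5 and Efnb1 were lower at -1.50, -1.43 and -0.98. Epha1 was the exception, at 32.99, 19.7, 62.6 and 55.5 CPM in FA and 21.5, 5.58, 35.8 and 17.0 CPM in N2B27, higher in each pair by 1.19 ± 0.24 (adjusted p = 0.0229), with SL above 2iL at the same day and condition.

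Of 27 imprinted genes tested, 14 were lower and 1, Usp29 (0.89 ± 0.24), was higher. That is a called share of 55.6%, against 23.6% for all genes. The SL pairs alone gave 11 lower and 1 higher, and the 2iL pairs alone 11 and 0. Igf2, the fetal growth factor, was at 3.51, 8.76, 15.9 and 30.3 CPM in FA and 67.1, 113, 81.9 and 105 CPM in N2B27, with no overlap (-2.94 ± 0.54, adjusted p = 0.038). H19, the non-coding neighbour of Igf2 that is expressed from the other parental allele, was at 140.1, 213, 9.76 and 7.87 CPM in FA and 469, 607, 33.5 and 39.1 CPM in N2B27 (-1.81 ± 0.12, adjusted p = 0.000315). H19 was higher in 2iL than in SL in both conditions, and its difference in each medium was of the same sign. Peg10 and Mest were lower at -1.09 ± 0.08 and -1.04 ± 0.19. Rian and Mirg, non-coding RNAs of the Dlk1 cluster, were lower at -0.28 ± 0.07 and -0.47 ± 0.08 although they had been higher by 1.06 and 1.07 in the 2iL EpiSC library of day 0.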
